A study of Mus musculus with 16 samples.

Results

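This account covers 10 genes at the core of ferroptosis, chosen by name for their roles in lipid peroxide defence (Gpx4, Aifm2), in cystine import and glutathione synthesis (Slc7a11, Slc3a2, Gclc, Gclm, Gss) and in the activation and peroxidation of polyunsaturated lipids (Acsl4, Lpcat3, Alox15). All 10 were found among the 13982 genes of the expression table. RNA was sequenced from cortical cells of C57BL/6 mice that were stained for CD45 and CD11b, sorted and labelled as microglia, in 16 libraries of 4 groups with 4 libraries each. Sham mice are labelled untreated. MCAO stands for middle cerebral artery occlusion, which models ischemic stroke; the infarcted cortex of these mice was taken. Mice of MCAO+Ctrl-exos and of MCAO+AS-exos had the same occlusion and received 150 µg of exosomes, small vesicles released by cells, through a tail vein on the day of surgery and again at 3-day intervals. These vesicles were prepared from the plasma of ApoE KO donors on a normal diet or on a western diet, which was given for 12 weeks to produce atherosclerosis. Which diet stands behind which exosome name, the age of the mice, the time of sorting and whether each library is 1 mouse are not given in the sources used here, so a p-value measures the spread between these libraries, which may be technical.

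Ferroptosis is an iron-dependent form of cell death in which peroxides build up in membrane phospholipids. Cystine taken up by system xc-, a heterodimer of the Slc7a11 and Slc3a2 products, feeds the synthesis of glutathione, which the selenoenzyme Gpx4 uses to reduce lipid peroxides, while Acsl4 and Lpcat3 place the oxidizable fatty acids into phospholipids. Microglia and infiltrating macrophages in injured brain take up iron and lipid debris, and these genes have been studied there as determinants of whether such cells survive.

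Values were read as FPKM, fragments scaled to transcript length and to library size, on which genes can be compared within a library. This unit is a reading, and TPM of part of the genes is possible. Deposited totals ran from 758283 to 983648 FPKM, and each library had 8813 to 10003 genes at 1 FPKM or more; the files give no counts, so the depth is unknown. The label microglia was checked against its markers: summed FPKM of 12 homeostatic microglia markers ran from 22409 to 24857 in Sham and from 1180 to 2068 in the stroke libraries, and 12 of 12 fell in MCAO against Sham. All 12 monocyte markers rose, from summed levels of 217 to 615 FPKM in Sham to 9448 to 26860 FPKM after stroke. Border macrophage markers went from 13.8 to 75.8 FPKM in Sham to 1931 to 5715 FPKM (8 of 9 tested rose), and neutrophil markers from 76.7 to 144 FPKM to 1635 to 9727 FPKM (6 of 8 rose), with Ly6g at 0 in every Sham and MCAO library. Summed levels of T and NK cell, neuron, and endothelial and mural markers stayed at or below 9.93 FPKM in every library, those of B cell markers at or below 50.0 FPKM, those of erythroid markers at or below 93.3 FPKM, those of oligodendrocyte markers between 12.96 and 74.9 FPKM, and those of astrocyte markers ran from 57.8 to 107 FPKM in Sham and from 1.40 to 14.7 FPKM after stroke. Every difference between Sham and stroke libraries below moves with these markers, whose part in it was not tested, and in bulk RNA fewer cells of a type and less RNA per cell cannot be told apart. Among stroke libraries, MCAO+AS-exos replicates 1 to 3 were the most alike: across genes each correlated with its own group at a mean r of 0.956 to 0.962. MCAO+AS-exos replicate 4 gave 0.915 with its own group and 0.925 with the other stroke groups. That 0.915 lay within the own-group values of the MCAO and MCAO+Ctrl-exos libraries, 0.905 to 0.929. The cause of the closeness of replicates 1 to 3 was not tested.

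**Figure D1:**
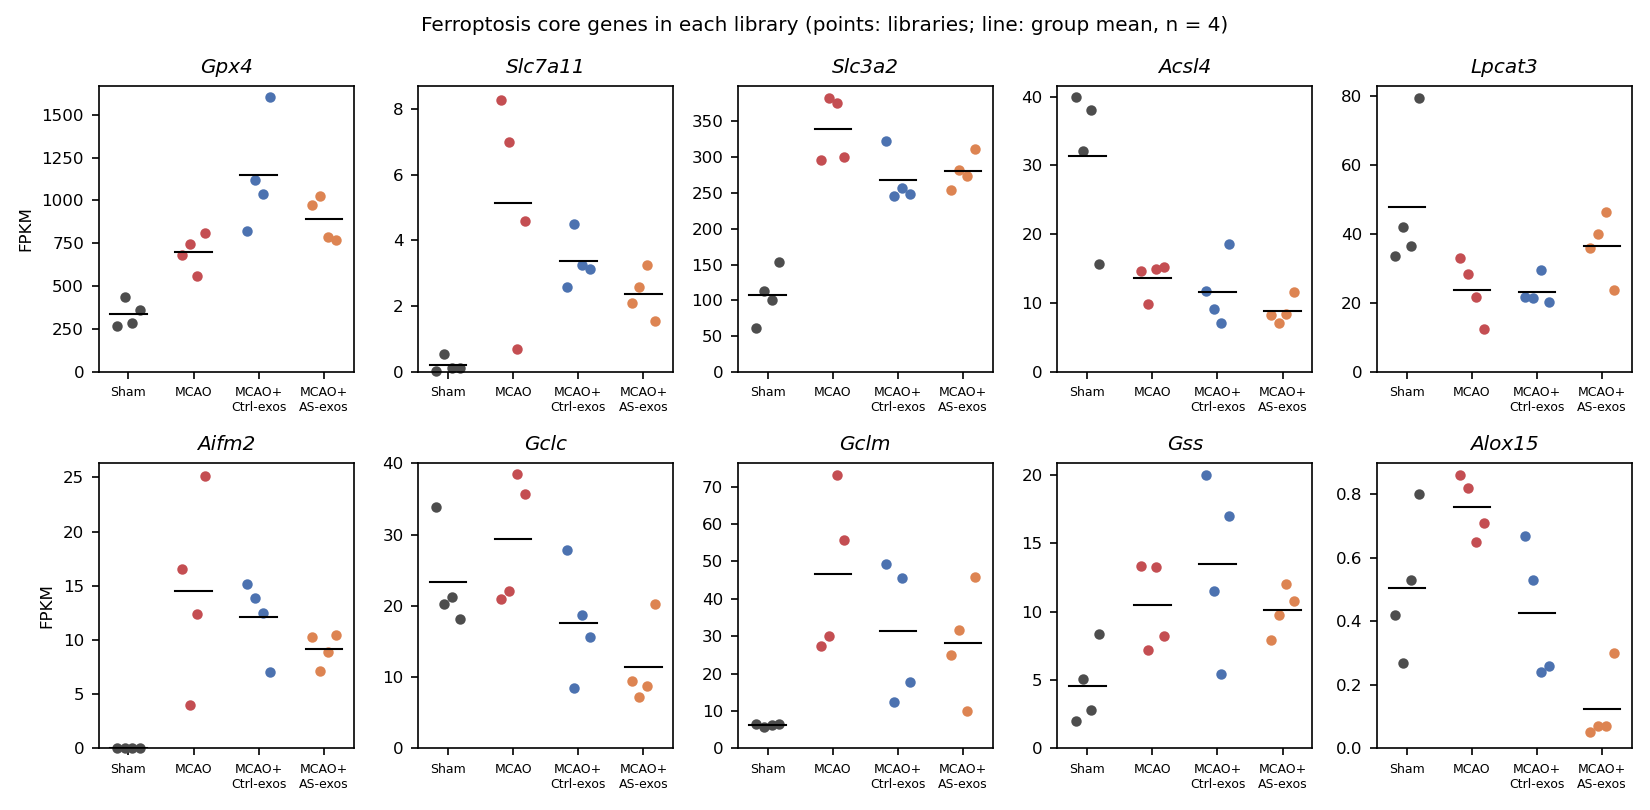
FPKM of the 10 ferroptosis genes in each of 16 libraries (points), by group, with the mean of 4 libraries as a line and a separate vertical scale for each gene. Gpx4, Slc3a2, Aifm2 and Gclm are higher in all 12 stroke libraries than in any Sham library, and Alox15 stays below 1 FPKM throughout.

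MCAO against Sham asks what stroke changed in the sorted cells. Defence and glutathione genes were higher after MCAO: Gpx4, Aifm2, Slc7a11, Slc3a2, Gclm and Gss rose. Acsl4 and Lpcat3, which load oxidizable fatty acids into phospholipids, fell. Gclc did not pass the test, and Alox15 was too low to be tested. In limma, 8 of 9 tested members had an adjusted p below 0.05, 6 higher and 2 lower, where 39.2% of the 10846 tested genes were called, 24.5% higher and 14.8% lower. The Sham and MCAO ranges were separate for 7 of 9 members and for 33.8% of all tested genes. At an unadjusted p below 0.05 there were 8 of 9 members and 47.8% of tested genes. Slc7a11 and Aifm2 passed the filter of 1 FPKM in at least 4 libraries only through the stroke groups, where they were high, so these counts are a description. The median log2 fold change was 1.14 over the 9 tested members and 0.25 over all tested genes.

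Gpx4, the enzyme that reduces phospholipid hydroperoxides at the expense of glutathione, was the most abundant member in every library. Sham replicates 1 to 4 measured 269, 439, 282 and 359 FPKM, and MCAO replicates 680, 745, 559 and 807 FPKM. The lowest MCAO library lay above the highest Sham library. Its group mean, given with its SD over 4 libraries throughout, rose from 337 ± 78.3 to 698 ± 106 FPKM, a log2 fold change of 1.06 ± 0.22 (SE, adjusted p = 0.000763). The Gpx4 level exceeded 97.7% of the genes in the table in Sham and 98.4% in MCAO.

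Aifm2, also called FSP1, is an oxidoreductase that reduces ubiquinone, which traps lipid radicals independently of glutathione. It was listed at 0, 0, 0 and 0.04 FPKM in Sham and at 16.6, 3.99, 12.4 and 25.1 FPKM in MCAO. Expression was thus read in every MCAO library and at most barely in Sham. On the log2(FPKM + 1) scale the difference was 3.71 ± 0.42 (adjusted p = 7.48e-07). With a pseudocount of 0.1 it was 6.80, since its size rests on the value added to 0, and no fold is given against Sham. Aifm2 passed the filter only through the stroke groups, so this limma p-value describes the values and is no independent support.

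Slc7a11, the cystine and glutamate exchanging light chain of system xc-, measured 0.03, 0.54, 0.11 and 0.12 FPKM in Sham. The MCAO libraries gave 8.29, 6.99, 0.69 and 4.59 FPKM. MCAO replicate 3 lay just above the highest Sham library, while the other 3 MCAO libraries were well above it. The mean rose from 0.200 ± 0.230 to 5.14 ± 3.34 FPKM. The log2(FPKM + 1) difference of 2.12 ± 0.45 (adjusted p = 0.000879) understates the change of so low a gene, and with a pseudocount of 0.1 it was 3.95. Slc7a11 too passed the filter only through the stroke groups, so its limma p-value is likewise a description.

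The heavy chain Slc3a2, a glycoprotein that brings Slc7a11 and several other amino acid transporters to the cell surface, was far more abundant. It measured 61.1, 113, 100.5 and 153 FPKM in Sham against 296, 383, 376 and 301 FPKM in MCAO. No MCAO library came near the Sham range. The mean rose from 107 ± 37.8 to 339 ± 47.1 FPKM (log2 fold change 1.72 ± 0.23, adjusted p = 8.62e-06). In the 11 libraries where Slc7a11 reached 1 FPKM, the Slc3a2 level was 35.7 to 202 times that of Slc7a11.

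Glutamate-cysteine ligase, the rate-limiting enzyme of glutathione synthesis, has a catalytic subunit, Gclc, and a modifier subunit, Gclm, and these differed in their response. Gclm measured 6.43, 5.67, 6.15 and 6.49 FPKM in Sham and 27.4, 30.1, 73.1 and 55.6 FPKM in MCAO. The Sham libraries lay close together and all MCAO libraries far above them. The Gclm mean rose from 6.18 ± 0.374 to 46.5 ± 21.8 FPKM, 7.53 times the Sham mean (log2 fold change 2.61 ± 0.47, adjusted p = 0.000179). Gclc measured 33.8, 20.3, 21.2 and 18.2 FPKM in Sham and 21.01, 22.1, 38.5 and 35.7 FPKM in MCAO. These ranges overlapped almost wholly. The Gclc log2 fold change of 0.31 ± 0.38 did not pass (95% interval -0.48 to 1.09, adjusted p = 0.547). Within a library, Gclm was 0.190 to 0.356 times Gclc in Sham and 1.305 to 1.90 times Gclc in MCAO. The subunit with the higher RNA level was thus Gclc in Sham and Gclm in MCAO.

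Gss, the synthetase that adds glycine in the second step of glutathione synthesis, measured 1.99, 5.06, 2.82 and 8.39 FPKM in Sham and 13.3, 7.17, 13.3 and 8.25 FPKM in MCAO. MCAO replicates 2 and 4 lay below the highest Sham library. The mean rose from 4.57 ± 2.86 to 10.5 ± 3.26 FPKM (log2 fold change 1.14 ± 0.41, adjusted p = 0.0345). The Gss call was lost without Sham replicate 1 (adjusted p = 0.111) or 3 (0.089), without MCAO replicate 1 (0.0884) or 3 (0.0869), and in 3 further alternatives.

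The upstream sequences of the 2 members that rose after MCAO and hold a searched motif are shown because the antioxidant and amino acid stress responses are known to act on Slc7a11 and Gclm. RefSeq windows of GRCm38.p6, from 250 bases before to 50 bases after the transcript start, were found for 8 of 10 members. Both strands were searched for TGACNNNGC, the core of the antioxidant response element bound by Nfe2l2 (reverse complement GCNNNGTCA), and for TGATGNAA, the core of the C/EBP-ATF response element bound by Atf4 (reverse complement TTNCATCA). The 250 bases upstream are printed in the direction of the gene with matches in capitals, for Slc7a11 from chr3:50443614-50443863 on the minus strand and for Gclm from chr3:122245307-122245556 on the plus strand.
Slc7a11: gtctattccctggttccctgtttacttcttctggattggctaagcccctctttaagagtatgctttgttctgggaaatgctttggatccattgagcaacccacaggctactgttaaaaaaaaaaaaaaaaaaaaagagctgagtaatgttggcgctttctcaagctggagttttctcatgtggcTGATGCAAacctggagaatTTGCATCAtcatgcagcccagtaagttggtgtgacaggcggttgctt
Gclm: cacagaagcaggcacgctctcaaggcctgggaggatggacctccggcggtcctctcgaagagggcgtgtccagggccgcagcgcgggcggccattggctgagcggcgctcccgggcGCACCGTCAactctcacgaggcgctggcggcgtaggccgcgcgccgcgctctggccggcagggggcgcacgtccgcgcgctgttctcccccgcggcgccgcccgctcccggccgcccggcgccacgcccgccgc
Slc7a11 holds the C/EBP-ATF core at 66 bases and again, on the other strand, at 47 bases before the start, which makes 2 matches that do not overlap. Gclm holds the antioxidant core on the other strand at 134 bases before the start. Of 32851 windows of this length, 12.4% hold the antioxidant core and 3.97% the C/EBP-ATF core, and a match describes these letters without making them a site. The gene of the factor that binds the second motif, Atf4, fell in MCAO from 389 ± 64.0 to 222 ± 33.7 FPKM (log2 fold change -0.80 ± 0.24, adjusted p = 0.012), and Nfe2l2 measured 95.2 ± 23.8 FPKM in Sham and 87.6 ± 13.1 FPKM in MCAO (log2 fold change -0.10, adjusted p = 0.764). Both are named here for the motifs, outside the naming rule. Their RNA levels do not measure the activity of the factors, whose part in the Slc7a11 and Gclm values was not tested.

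Acsl4, which couples arachidonic and related fatty acids to coenzyme A, measured 39.9, 32.1, 38.05 and 15.6 FPKM in Sham. MCAO libraries gave 14.7, 9.89, 14.9 and 15.3 FPKM. Sham replicate 4 lay just above the highest MCAO library, so the ranges met without overlapping. The mean fell from 31.4 ± 11.1 to 13.7 ± 2.55 FPKM (log2 fold change -1.08 ± 0.35, adjusted p = 0.0189). The Acsl4 call was lost without Sham replicate 1 (adjusted p = 0.057), without Sham replicate 3 (0.0571) and without MCAO replicate 2 (0.0609). It was also lost once trends with transcript length and GC content were taken out of each library, where the log2 fold change was -0.28 (adjusted p = 0.474); the Acsl4 transcript is long, with 5048 bases against a median of 2630 bases, and has a GC content of 39.0%.

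Lpcat3, the acyltransferase that places these activated fatty acids into lysophospholipids, measured 33.7, 42.05, 36.4 and 79.6 FPKM in Sham. The MCAO values were 33.1, 28.5, 21.7 and 12.3 FPKM, all below the Sham range although replicate 1 only narrowly. The mean fell from 47.9 ± 21.4 to 23.9 ± 9.02 FPKM (log2 fold change -0.97 ± 0.34, adjusted p = 0.0274). Without Sham replicate 4, MCAO replicate 3 or MCAO replicate 4 the adjusted p was 0.0998, 0.0535 and 0.107, and in a fit of only the 8 libraries compared it was 0.068.

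Alox15, a lipoxygenase that oxygenates polyunsaturated fatty acids within membranes, stayed below 1 FPKM in all 16 libraries and was not tested in the main fit. Sham libraries gave 0.42, 0.27, 0.53 and 0.80 FPKM and MCAO libraries 0.86, 0.82, 0.65 and 0.71 FPKM. Alox15 measured 0.67, 0.53, 0.24 and 0.26 FPKM with MCAO+Ctrl-exos and 0.05, 0.07, 0.07 and 0.30 FPKM with MCAO+AS-exos. The MCAO+AS-exos values were low except in replicate 4. In the fit with no filter, the MCAO against Sham difference was 0.24 ± 0.13 on the log2(FPKM + 1) scale (adjusted p = 0.21). Alox15 is itself an eosinophil marker, and the other 4 markers of that list in the table did not move together. Siglecf measured 5.37 to 11.22 FPKM in Sham, 0.28 to 1.99 in MCAO, 0.02 to 0.13 in MCAO+Ctrl-exos, 4.61 to 8.45 in MCAO+AS-exos replicates 1 to 3 and 0.44 in replicate 4. Ear2 was at 0 to 0.11 FPKM in Sham and at 1.97 to 42.11 FPKM in the stroke libraries, in another order than Siglecf. Ccr3 was at 0.96 to 5.17 FPKM in Sham, at 0 in every MCAO and MCAO+Ctrl-exos library and at 0 to 0.72 FPKM in MCAO+AS-exos, and Il5ra reached 4.99 FPKM in MCAO replicate 1 and at most 0.06 FPKM elsewhere. Their part in the Alox15 values was not tested.

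The other pathway genes, from lists written out beside the members, were mixed in MCAO against Sham, where of all tested genes 24.5% rose and 14.8% fell, with a median log2 fold change of 0.25. Some list genes had no Sham library at 1 FPKM and so passed the filter only through the stroke groups; among the list genes that rose these were 1 in each of the lipid peroxide defence, cystine and glutathione, lipid activation and glutathione peroxidase lists and 2 in each of the selenoprotein synthesis and regulator lists, so the counts are a description. Of 15 other lipid peroxide defence genes tested, 5 rose and 1 fell (median log2 fold change 0.33). Prdx6, a peroxiredoxin that reduces phospholipid peroxides, rose from 14.96 ± 10.3 to 198 ± 27.5 FPKM, Txnrd1, thioredoxin reductase, from 4.07 ± 3.43 to 48.2 ± 10.003 FPKM, and Gch1, which starts tetrahydrobiopterin synthesis, from 1.69 ± 1.999 to 14.4 ± 4.75 FPKM. Pts, a later enzyme of the same synthesis, fell from 151 ± 41.8 to 56.6 ± 16.5 FPKM. Of 10 other cystine and glutathione genes, 5 rose and 1 fell (median 1.32). Gsr, which returns oxidized glutathione to its reduced form, rose from 5.86 ± 3.59 to 118 ± 23.6 FPKM (log2 fold change 4.25 ± 0.34, adjusted p = 6.62e-09). Pgd, an NADPH source of the pentose phosphate pathway, rose by 2.50 on the log2 scale. The glutamine transporter Slc1a5 rose from 0.748 ± 0.859 to 9.98 ± 4.54 FPKM, a log2(FPKM + 1) difference of 2.64 that understates the change, whereas Ggt5, a gamma-glutamyltransferase, had a log2 fold change of -1.94.

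Of the other glutathione peroxidases 2 were tested. Gpx1, the cytosolic enzyme, rose from 535 ± 145 to 1148 ± 108 FPKM, with a log2 fold change of 1.14 ± 0.23 beside 1.06 for Gpx4. Gpx3, the secreted form, had a mean of 0.01 FPKM in Sham, near 0, and 26.3 ± 6.13 FPKM in MCAO; it rose, having passed the filter only through the stroke groups. Of 11 genes of selenoprotein synthesis, on which Gpx4 depends, 3 rose and 2 fell (median 0.38): Sephs2, which makes selenophosphate, rose from 14.7 ± 2.34 to 88.0 ± 27.8 FPKM. Lrp8, a receptor for selenoprotein P, had a log2(FPKM + 1) difference of 2.50 and Scly, selenocysteine lyase, of 1.89, and both rose, again from Sham values below 1 FPKM in every library. Pstk, the kinase that prepares the selenocysteine tRNA, fell from 42.0 ± 15.4 to 13.8 ± 5.67 FPKM.

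Of 19 other genes of lipid activation and peroxidation, 5 rose, 1 fell and 13 did not pass (median 0.59). Por, a reductase that can feed electrons into lipid peroxidation, rose from 3.98 ± 1.97 to 53.1 ± 25.9 FPKM, and Alox5ap, which presents arachidonic acid to Alox5, from 608 ± 63.6 to 1117 ± 120 FPKM. Ptgs2, the inducible cyclooxygenase often used as a ferroptosis marker, rose to 9.02 ± 4.65 FPKM from a Sham mean of 0.0025 FPKM and passed the filter only through the stroke groups. Sat1, which acetylates polyamines, fell from 1971 ± 418 to 977 ± 88.0 FPKM. Of 11 regulators, 4 rose and 3 fell (median 0.21): Hif1a rose by 1.82 and Keap1, the inhibitor of Nfe2l2, by 2.18 on the log2(FPKM + 1) scale. Ddit4 rose from 0.085 ± 0.101 to 3.85 ± 1.31 FPKM, a log2(FPKM + 1) difference of 2.11 that understates the change of so low a gene, and Atf3 had a log2 fold change of -1.44.

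MCAO+Ctrl-exos and MCAO+AS-exos were also set against Sham. These comparisons share the 4 Sham libraries with each other and with MCAO against Sham, so their values are given side by side. In each, 6 members rose and 2 fell, where 38.7% of tested genes were called for MCAO+Ctrl-exos (22.1% higher, 16.6% lower) and 39.8% for MCAO+AS-exos (20.7% higher, 19.1% lower). Over all genes this balance turned with the scaling: for MCAO+Ctrl-exos 2392 higher and 1802 lower became 1933 and 2137 with totals scaled and 2066 and 2116 with quantile normalization, and for MCAO+AS-exos 2242 and 2077 became 1943 and 2301, and 2019 and 2382. Slc7a11 and Aifm2, among the 6, passed the filter only through the stroke groups here too, so the members' counts and medians are a description. At an unadjusted p below 0.05 there were 8 of 9 members in each, and 47% and 47.8% of tested genes. The median log2 fold change of the tested members was 1.39 and 1.41, and that of all tested genes 0.12 and 0.03. The rising members were the same 6 in both: the log2 fold change was 1.75 and 1.41 for Gpx4, 3.65 and 3.32 for Aifm2, 1.86 and 1.48 for Slc7a11, 1.38 and 1.45 for Slc3a2, 1.95 and 1.84 for Gclm, and 1.39 and 1.13 for Gss. Acsl4 fell in both, with log2 fold changes of -1.35 (adjusted p = 0.00429) and -1.66 (adjusted p = 0.000827). Lpcat3 fell with MCAO+Ctrl-exos (log2 fold change -0.94 ± 0.34, adjusted p = 0.033) and did not pass with MCAO+AS-exos (-0.33 ± 0.34, 95% interval -1.04 to 0.37, adjusted p = 0.456). Gclc did not pass with MCAO+Ctrl-exos (-0.46 ± 0.38, adjusted p = 0.358) and fell with MCAO+AS-exos (-1.04 ± 0.38, adjusted p = 0.0351). Whether Lpcat3 and Gclc differ between the exosome groups is what their direct comparison below tests. Values did not overlap with Sham for 6 members in each comparison, against 33.5% and 36.5% of all tested genes.

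**Figure D2:**
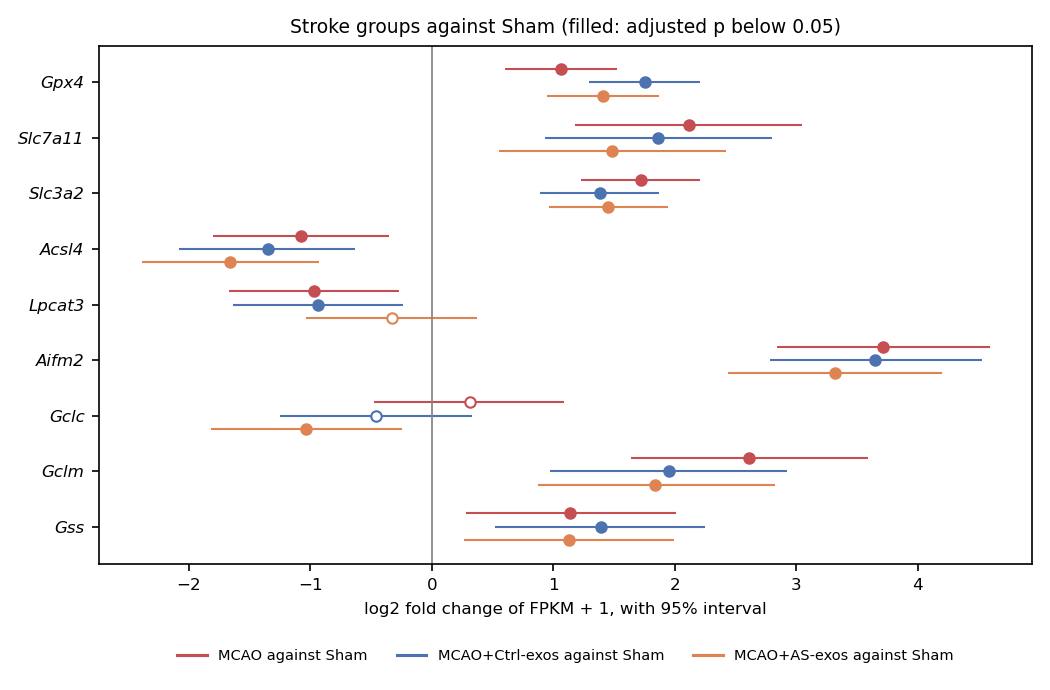
Log2 fold change of FPKM + 1 (horizontal axis) of the 9 tested members in each stroke group against Sham, with 95% intervals; filled points have an adjusted p below 0.05. The 3 comparisons share the Sham libraries. Gpx4, Slc7a11, Slc3a2, Aifm2, Gclm and Gss lie above 0 and Acsl4 below 0 in all 3, while Gclc and Lpcat3 differ in which comparisons pass.

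The length and GC trends bore on several of these values. With the trends removed, Acsl4 no longer passed with MCAO+Ctrl-exos (-0.42, adjusted p = 0.281) or MCAO+AS-exos (-0.51, adjusted p = 0.19), and with MCAO+AS-exos Gclc (-0.76, adjusted p = 0.0937) and Gss (0.62, adjusted p = 0.225) did not pass either, which left 5 members higher and 0 lower. Gpx4, a short transcript of 959 bases with 58.8% GC, kept its call in all 3 comparisons, but its log2 fold change was 0.69 in place of 1.06 for MCAO, 0.98 in place of 1.75 for MCAO+Ctrl-exos and 0.82 in place of 1.41 for MCAO+AS-exos. Slc7a11, long and of low GC, moved the other way in MCAO+AS-exos, from 1.48 to 2.24. Quantile normalization, which moved the median of all genes in MCAO against Sham from 0.25 to -0.03 and the calls there from 2654 higher and 1600 lower to 2084 higher and 2164 lower, took the Gpx4 value of MCAO+Ctrl-exos against Sham to 1.10 and ended the Gss call in MCAO against Sham (0.80, adjusted p = 0.0993). Each of the 9 members kept its direction against Sham in every alternative that gave it a value. Single libraries mattered here too: Lpcat3 no longer passed for MCAO+Ctrl-exos without Sham replicate 4 (adjusted p = 0.12) or without MCAO+Ctrl-exos replicate 1, 2 or 4 (0.0634 to 0.0732). For MCAO+AS-exos, Gclc no longer passed without Sham replicate 1 or 3 or MCAO+AS-exos replicate 1, 2 or 3 (0.0543 to 0.111), and Gss without Sham replicate 1 or 3 or MCAO+AS-exos replicate 2, 3 or 4 (0.0629 to 0.119).

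**Figure D3:**
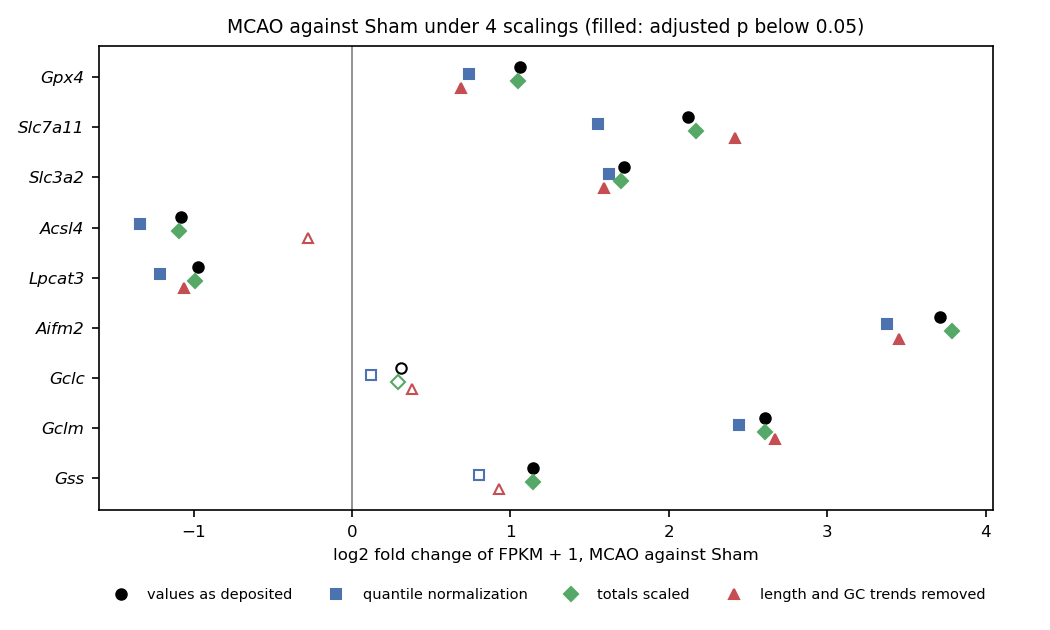
Log2 fold change of the 9 tested members in MCAO against Sham (horizontal axis) with values as deposited, after quantile normalization, with totals scaled to be equal, and with length and GC trends removed. Acsl4 moves from -1.08 to -0.28 when the trends are removed, while Slc3a2, Aifm2 and Gclm stay well above 0 under each scaling.

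MCAO+Ctrl-exos against MCAO compares stroke mice given control exosomes with those labelled MCAO alone, whose labels do not mention a vehicle. No member passed the limma test: 0 of 9, where 0.0738% of tested genes were called (0.0461% higher, 0.0277% lower), and 1 of 9, Gpx4, at an unadjusted p below 0.05, where 10.9% of tested genes were. Gpx4 was also the only member whose values did not overlap between the groups, against 5.98% of all tested genes. The median log2 fold change was -0.25 over the members and -0.14 over all tested genes.

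Gpx4 measured 823, 1121, 1038 and 1601 FPKM in MCAO+Ctrl-exos, all above the highest MCAO library at 807 FPKM. Its mean was 1146 ± 328 FPKM against 698 ± 106 FPKM, 1.64 times the MCAO mean. The log2 fold change of 0.69 ± 0.22 (95% interval 0.22 to 1.15) did not pass after adjustment over all genes (adjusted p = 0.26), and it was 0.29 with the length and GC trends removed. Gclc measured 27.8, 8.45, 18.8 and 15.6 FPKM in MCAO+Ctrl-exos, with 3 libraries below the MCAO range and replicate 1 inside it (log2 fold change -0.76 ± 0.38, 95% interval -1.55 to 0.03, adjusted p = 0.472). The Gclm values of 49.3, 12.4, 45.6 and 17.7 FPKM fell into a pair within the MCAO range and a pair below it (-0.66 ± 0.47, adjusted p = 0.62). These Gclm values show a spread within the group as wide as the difference between groups.

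The remaining members lay within the MCAO ranges or across them. Slc3a2 measured 322, 246, 256 and 249 FPKM, lower than MCAO in 3 of 4 libraries (-0.34 ± 0.23, 95% interval -0.83 to 0.16). Slc7a11 gave 2.57, 4.51, 3.26 and 3.14 FPKM, inside the wide MCAO range (-0.25, interval -1.19 to 0.68). Its spread was smaller than in MCAO, with an SD of 0.817 against 3.34 FPKM. Aifm2 measured 15.2, 13.8, 12.5 and 7.04 FPKM (-0.06, interval -0.94 to 0.82), and Gss 20.0, 11.5, 5.43 and 17.0 FPKM (0.24, interval -0.62 to 1.11). Acsl4 measured 11.8, 9.17, 7.07 and 18.6 FPKM, with replicate 4 above every MCAO library (-0.28, interval -1.0 to 0.45). Lpcat3 gave 21.7, 21.5, 29.4 and 20.4 FPKM, with a log2 fold change of 0.03 (interval -0.67 to 0.74). The sign of the Aifm2, Lpcat3 and Slc7a11 values changed in some alternatives. The intervals of these genes reach, in at least 1 direction, about the size of the Gpx4 difference.

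MCAO+AS-exos against MCAO+Ctrl-exos is the comparison of exosome source, and the series title names ferroptosis of microglia as its subject. None of the 9 tested members passed the limma test, none had an unadjusted p below 0.05 and none had groups without overlap. Of all tested genes 0.286% were called (0.157% higher, 0.129% lower), 19.6% had an unadjusted p below 0.05 and 10.2% did not overlap. The median log2 fold change was -0.31 over the members and -0.08 over all tested genes.

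In the defence genes, Gpx4 measured 971, 1028, 788 and 768 FPKM in MCAO+AS-exos, the lower 2 libraries below the MCAO+Ctrl-exos range and the upper 2 within it. The mean was 889 ± 130 FPKM against 1146 ± 328 FPKM, a log2 fold change of -0.34 ± 0.22 (95% interval -0.80 to 0.13, adjusted p = 0.414). Aifm2 measured 10.2, 7.13, 8.88 and 10.5 FPKM, inside the MCAO+Ctrl-exos range (-0.33 ± 0.42, interval -1.21 to 0.54, adjusted p = 0.7). The intervals of both genes include a fall, no change and a rise.

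Cystine import and glutathione genes likewise overlapped. Slc7a11 measured 2.09, 2.58, 3.26 and 1.54 FPKM (-0.38, interval -1.32 to 0.55, adjusted p = 0.673). Slc3a2 measured 254, 282, 273 and 312 FPKM, almost the same mean as with control exosomes, 280.3 ± 24.2 against 268 ± 36.3 FPKM (0.07, interval -0.42 to 0.56, adjusted p = 0.908). The intervals limit a Slc3a2 change to less than that of stroke itself, which was 1.72. Gclc measured 9.47, 7.22, 8.79 and 20.3 FPKM, with replicates 1 to 3 low and replicate 4 apart (-0.58 ± 0.38, interval -1.37 to 0.21, adjusted p = 0.409). Gclm measured 25.1, 31.7, 10.02 and 45.7 FPKM, as scattered as with control exosomes (-0.10, interval -1.08 to 0.87, adjusted p = 0.932). Gss measured 7.95, 9.78, 12.0 and 10.8 FPKM (-0.26, interval -1.13 to 0.60, adjusted p = 0.774).

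In the lipid genes, Lpcat3 measured 35.9, 40.1, 46.5 and 23.8 FPKM in MCAO+AS-exos, with replicates 1 to 3 above every MCAO+Ctrl-exos library and replicate 4 inside their range. Its mean of 36.6 ± 9.57 FPKM stood against 23.3 ± 4.16 FPKM, and the log2 fold change of 0.61 ± 0.34 did not pass (interval -0.10 to 1.31, adjusted p = 0.323). Acsl4 measured 8.25, 7.05, 8.37 and 11.6 FPKM (-0.31, interval -1.03 to 0.42, adjusted p = 0.664). Alox15 had a difference of -0.34 ± 0.13 on the log2(FPKM + 1) scale in the fit with no filter, at levels below 1 FPKM (adjusted p = 0.215). Without MCAO+AS-exos replicate 4, the count of genes called went from 31 to 1297, yet 0 members passed: Lpcat3 reached 0.79 (adjusted p = 0.14) and Gclc -0.87 (adjusted p = 0.128).

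**Figure D4:**
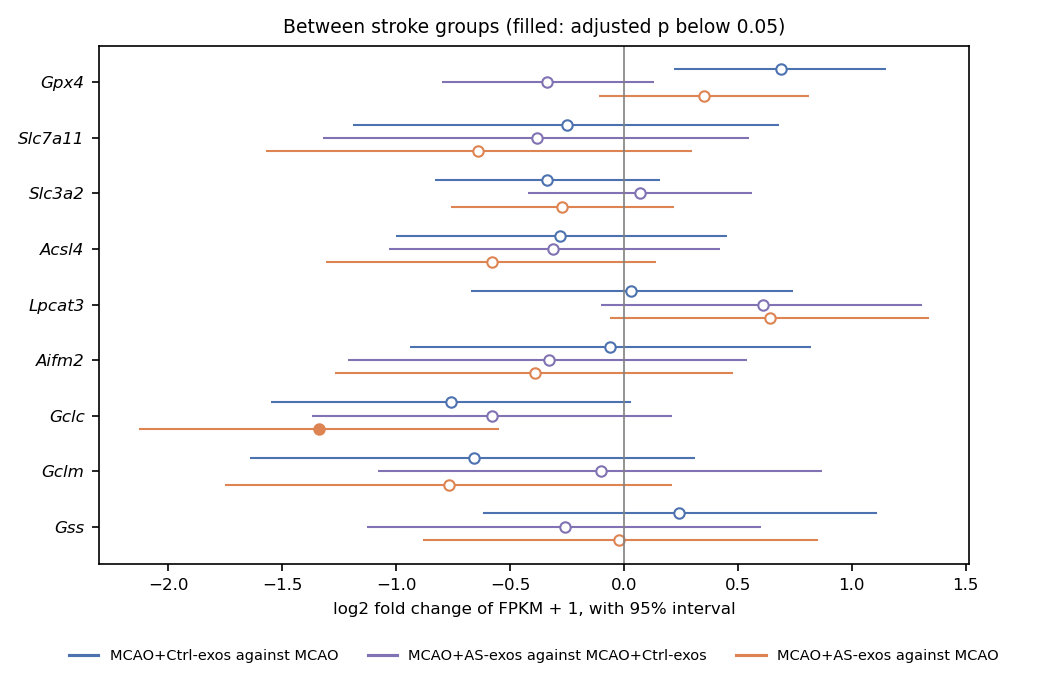
Log2 fold change of FPKM + 1 (horizontal axis) of the 9 tested members in the 3 comparisons among stroke groups, with 95% intervals; filled points have an adjusted p below 0.05. Gclc in MCAO+AS-exos against MCAO, at -1.34, is the one filled point, and its call does not hold in 14 of 25 alternatives.

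MCAO+AS-exos against MCAO gave 1 call among the members. Gclc, the catalytic subunit of glutamate-cysteine ligase, fell, and the other 8 tested members did not pass, where 6.14% of tested genes were called, 1.06% higher and 5.08% lower (115 and 551 genes, which became 96 and 222 with quantile normalization). At an unadjusted p below 0.05 there was 1 of 9 members, Gclc, and 25.7% of tested genes. Gclc measured 9.47, 7.22, 8.79 and 20.3 FPKM against 21.01, 22.1, 38.5 and 35.7 FPKM in MCAO, with the highest MCAO+AS-exos library just under the lowest MCAO library. It was the only member without overlap, against 14.4% of all tested genes. The mean fell from 29.3 ± 9.07 to 11.4 ± 5.97 FPKM (log2 fold change -1.34 ± 0.38, adjusted p = 0.0433). The call was lost in 14 of 25 alternatives, among them the fit of only the 8 libraries compared (adjusted p = 0.059), quantile normalization (-1.05, adjusted p = 0.102), removal of length and GC trends (-1.14, adjusted p = 0.0712) and 11 of the 16 fits that left out 1 library (adjusted p = 0.05 to 0.161, lost without Sham replicate 2 or 3, any MCAO replicate, MCAO+Ctrl-exos replicate 3 or 4, or MCAO+AS-exos replicate 1, 2 or 3). Without MCAO+AS-exos replicate 4 it was -1.63 (adjusted p = 0.00588). That fit kept replicates 1 to 3, whose mean r with their own group was the highest of all libraries. Whether they are independent mice is not known.

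The other members differed from MCAO by less than this test resolves. Lpcat3 had a log2 fold change of 0.64 ± 0.34 (interval -0.06 to 1.34, adjusted p = 0.238) and Acsl4 of -0.58 ± 0.35 (interval -1.31 to 0.14, adjusted p = 0.3). Gclm was at -0.77 ± 0.47 (adjusted p = 0.308), Slc7a11 at -0.64 (0.387), Aifm2 at -0.39 (0.594), Gpx4 at 0.35 (0.328), Slc3a2 at -0.27 (0.501) and Gss at -0.02 (0.986). Alox15, tested only in the fit with no filter, differed by -0.65 ± 0.13 on the log2(FPKM + 1) scale (adjusted p = 0.0244), from a mean of 0.760 ± 0.097 to 0.122 ± 0.119 FPKM. Its values did not overlap, but all lay below 1 FPKM. Against Sham in the same fit, Alox15 was at -0.08 with MCAO+Ctrl-exos (adjusted p = 0.736) and -0.42 with MCAO+AS-exos (adjusted p = 0.0291), and MCAO+Ctrl-exos against MCAO gave -0.31 (adjusted p = 0.439).

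Of the other pathway genes, none passed in MCAO+Ctrl-exos against MCAO or in MCAO+AS-exos against MCAO+Ctrl-exos in any list. At an unadjusted p below 0.05 in limma there were, in the first and the second of these comparisons, 3 and 3 of 15 lipid peroxide defence genes, 3 and 1 of 10 cystine and glutathione genes, and 1 and 3 of 19 lipid activation genes. The same counts were 1 and 1 of 2 glutathione peroxidases, 2 and 3 of 11 selenoprotein synthesis genes and 1 and 5 of 11 regulators. Of all tested genes 10.9% and 19.6% had such a p. In lists this small the counts lay on both sides of those shares. Above a share lay, among others, the cystine and glutathione genes in the first comparison and the selenoprotein synthesis genes and regulators in the second. The 5 regulators of the second comparison, given here outside the naming rule, were Bach1, Hif1a, Keap1, Ddit4 and Atf4. Their log2 fold changes ran from -0.97 (Ddit4) to -0.56 (Atf4), none passed after adjustment, and no list was tested. In MCAO+AS-exos against MCAO, Gpx3 rose from 26.3 ± 6.13 to 80.2 ± 28.2 FPKM (log2 fold change 1.51 ± 0.32, adjusted p = 0.0218). The regulators Ddit4 (-1.61, adjusted p = 0.0343), Bach1, a repressor of Nfe2l2 target genes (-1.08, adjusted p = 0.0467), and Keap1 (-1.51, adjusted p = 0.0468) fell. Ddit4 went from 3.845 ± 1.31 to 0.5925 ± 0.528 FPKM, so low that the 1 FPKM added before the log bears on its size. Bach1 (28.2 ± 7.50 to 13.4 ± 6.50 FPKM) and Keap1 (15.5 ± 4.79 to 5.44 ± 4.28 FPKM) had overlapping values. Of the other 4 lists 0 genes passed, with 2, 3, 3 and 1 at an unadjusted p below 0.05 among lipid peroxide defence, cystine and glutathione, lipid activation and selenoprotein synthesis genes, where 25.7% of all tested genes had one. Without MCAO+AS-exos replicate 2 or 3, 0 of all tested genes were called in this comparison, so that these 4 calls and that of Gclc were lost.

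A ratio between members within a library is free of a scaling that multiplies all values of that library, but not of trends with length or GC content. Gclm over Gclc stayed above its Sham range of 0.190 to 0.356 in every stroke library, at 1.13 to 2.43 in MCAO+Ctrl-exos and 1.14 to 4.39 in MCAO+AS-exos. Gpx4 over Acsl4, a detoxifying enzyme over one that supplies its substrates, was 6.74 to 23.0 in Sham, 37.4 to 75.3 in MCAO, 69.8 to 147 in MCAO+Ctrl-exos and 66.1 to 146 in MCAO+AS-exos. Sham lay below all stroke libraries, and the ranges of the exosome groups overlapped. With length and GC trends removed, the log2 fold change of Gpx4 minus that of Acsl4 was 0.97 in place of 2.14 for MCAO against Sham, 1.40 in place of 3.10 for MCAO+Ctrl-exos and 1.33 in place of 3.07 for MCAO+AS-exos. The same difference for Gclm and Gclc was 2.29 in place of 2.30, 2.38 in place of 2.41 and 2.83 in place of 2.88. A ratio shows unequal change of 2 genes and not which of them changed.

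**Figure D5:**
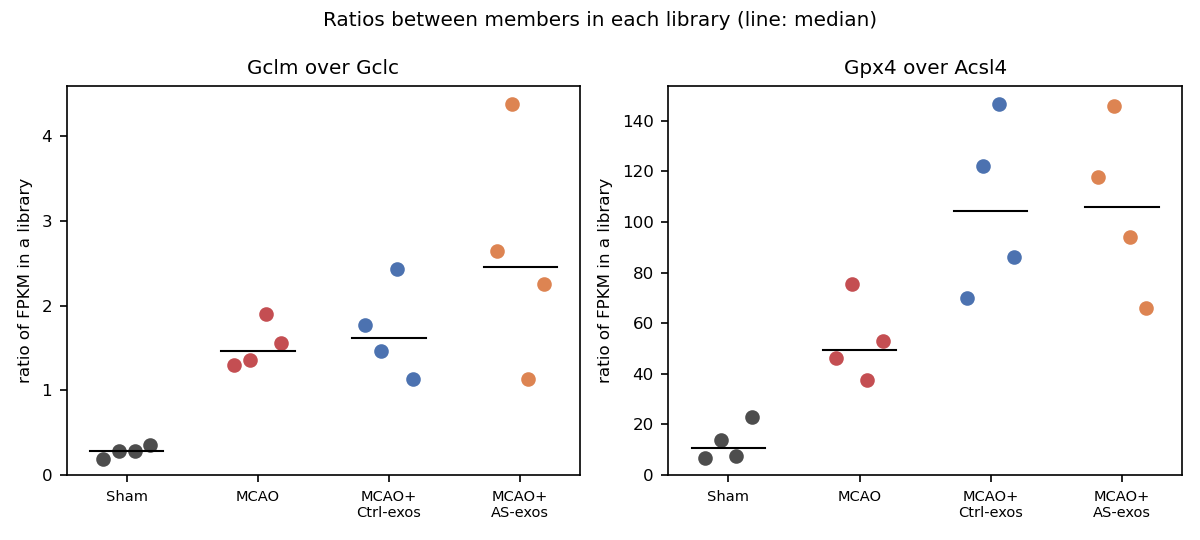
Ratio of FPKM of Gclm to Gclc (left) and of Gpx4 to Acsl4 (right) in each library (points), by group, with the median of 4 libraries as a line. Sham libraries lie below every stroke library in both panels.

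The genes whose log2 values over the 16 libraries were most like those of a member are given as a description, with no p. These libraries share their group structure, so the value over the 12 stroke libraries alone stands beside it. For Gpx4 they were Cd63, a tetraspanin of late endosomes (r = 0.961 over 16 and 0.861 over 12), and the proteasome subunits Psmb5 (0.960 and 0.908) and Psmb6 (0.951 and 0.893). For Slc3a2 they were Grn (0.973 and 0.490), Gpi1 (0.970 and 0.355) and Psap (0.969 and 0.565), likenesses that were weaker among stroke libraries. Those of Gclc were Dcaf10 (0.929 and 0.924), Erbin (0.925 and 0.933) and Top2b (0.920 and 0.966), as close among stroke libraries as over all. Aifm2 was nearest to Bcar3, Flot2 and Pilrb1 (0.961 to 0.969 over 16 and 0.583 to 0.700 over 12) and Gss to Mfge8, Ocel1 and Dnase2a (0.862 to 0.871 and 0.547 to 0.729), both with lower values among stroke libraries. Slc7a11 was nearest to Ctdspl, Vcan and Gpat3 (0.932 to 0.947 and 0.805 to 0.877) and Gclm to Ywhab, Bcl11a and Igf2r (0.904 to 0.934 and 0.736 to 0.873). Acsl4 was nearest to Otud1, Qk and Klhl15 (0.922 to 0.926 and 0.759 to 0.895) and Lpcat3 to Scamp2, Idh3g and Cd37 (0.894 to 0.900 and 0.852 to 0.905). Between members, over the 12 stroke libraries, the highest r of all pairs was that of Gclc and Gclm (0.779). The lowest was that of Gpx4 and Slc3a2 (-0.778), which varied in opposite directions. Differences between the stroke groups, in library totals and in the trends with transcript length and GC content were left in these values.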

How the data were processed

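RNA of sorted cells was measured in 16 libraries, grouped by the sample titles into 4 groups of 4. The deposited values were read as FPKM, which the authors computed from their reads; per the submitters' processing notes HISAT2, Bowtie2, RSEM 1.3.1 and the build GRCm39.p6 were used, while roles, annotation and filters are not given in the sources used here. FPKM is a reading of unequal totals and of RSEM output, and TPM of part of the genes is possible. The files hold no counts, only values to 2 decimals, so the depth is unknown and no counting error is given. Single-library files and the table of 13982 genes were identical.

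From these, genes were kept where 4 or more libraries held 1 FPKM or more (10846 kept, 3136 not tested), and log2(FPKM + 1) was fitted with limma 3.58.1 in R 4.3.3 as 4 group means over all 16 libraries (eBayes, robust, with a trend of variance on mean level). All p-values are two-sided. Adjusted p-values are by Benjamini and Hochberg across every tested gene, called below 0.05, and standard errors and 95% intervals come from the same fit. Alternatives were a pseudocount of 0.1, no filter, a minimum of 5 FPKM, quantile normalization, equal totals, a replicate block, no eBayes trend, only the 8 libraries compared and leaving out each of the 16 libraries. Removal of length and GC trends (GENCODE M21 transcripts of GRCm38, matched by symbol for 13494 genes, no coordinates used) was added after the data were seen. The fit was tested on simulated data.

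The members and lists were chosen with earlier results of these data known. All members are named; of each pathway list, up to 4 genes with the smallest p in MCAO against Sham and, among stroke groups, up to 4 genes past the threshold are named, and for each tested member the 3 most similar genes, predicted gene models left out. Promoter sequences are RefSeq windows of GRCm38.p6 matched by symbol.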

Additional observations from a re-analysis of the deposited data

Results flagged for a closer look

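Each member's 4 values in each group were screened for a library whose gap to the nearest other took most of the group's range, by Dixon's criterion at the 95% level. Of 40 groups of values 5 were singled out, where chance alone gives about 1 in 20 for normally distributed values, which values near 0 need not be. Slc3a2 in MCAO+Ctrl-exos replicate 1 measured 322.18 FPKM, above 245.72 to 256.34 FPKM in the other 3. Acsl4 in MCAO replicate 2 measured 9.89 FPKM, below 14.66 to 15.29 FPKM in the others, and without that library its call against Sham was lost. Lpcat3 in MCAO+Ctrl-exos replicate 3 measured 29.45 FPKM, above 20.4 to 21.71 FPKM. Aifm2 in Sham replicate 4 was listed at 0.04 FPKM beside 3 libraries at 0, where any value above 0 would have been singled out. Alox15 in MCAO+AS-exos replicate 4 measured 0.3 FPKM beside 0.05 to 0.07 FPKM. Across all genes this library also correlated less with its group than the other MCAO+AS-exos libraries did.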

How the results depend on the processing

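Of 1344 values of single members under alternatives, 1280 kept their direction and side of the threshold, 48 kept their direction but no longer passed, and 16 changed sign, all 16 in values that did not pass. In Ctrl-exos against MCAO, Aifm2 became 0.14 with quantile normalization and Lpcat3 -0.17 with totals scaled. Leaving out single libraries there, Slc7a11 ran from -0.79 to 0.03, Lpcat3 from -0.24 to 0.21 and Aifm2 from -0.53 to 0.27. In AS-exos against Ctrl-exos, Slc3a2 became -0.17 with length and GC trends removed, and Gclm ran from -0.45 to 0.30 over left-out libraries. In AS-exos against MCAO, Gss became 0.33 with quantile normalization and ran from -0.17 to 0.10 over left-out libraries. The minimum of 5 FPKM removed Slc7a11, which then has no value.

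The count of members called in AS-exos against MCAO, 1 in the main analysis, was 2 with no filter, where Alox15 entered, 0 with quantile normalization, with the 8 libraries compared and with length and GC trends removed, and 0 to 1 over left-out libraries. In AS-exos against Sham, 8 members became 5 with length and GC trends removed. Of all genes, 8 were called in Ctrl-exos against MCAO: 4 with no filter, 5 with totals scaled, 5 with the replicate block, 2 without eBayes trend, 3 with 8 libraries, 4 with length and GC trends removed and 2 to 89 over left-out libraries. In AS-exos against Ctrl-exos, 31 became 93 at a minimum of 5 FPKM, 88 with quantile normalization, 68 with the replicate block, 16 without eBayes trend, 9 with 8 libraries and 1 to 1297 over left-out libraries. In AS-exos against MCAO, 666 (115 higher, 551 lower) became 318 (96 higher, 222 lower) with quantile normalization, 900 (72 higher, 828 lower) with totals scaled, 31 with 8 libraries, 324 (39 higher, 285 lower) with length and GC trends removed and 0 to 2024 over left-out libraries; the cause was not tested. The largest counts came without Ctrl-exos replicate 1 (89) and without AS-exos replicate 4 (1297 and 2024); without AS-exos replicate 1, 2 or 3 the last comparison gave 2, 0 and 0, and without each MCAO replicate in turn 37 to 133.

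Replicate numbers carried no pairing: residuals of libraries with equal numbers correlated across genes at -0.148 to 0.0923. The replicate block called 8, 0, 0 and 1 members in MCAO against Sham, Ctrl-exos against MCAO, AS-exos against Ctrl-exos and AS-exos against MCAO, as without it. Unknown depth limits the reading of Slc7a11, Alox15 and Aifm2 in Sham most, since no counting error can be set beside values under 1 FPKM.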
